A study of Mus musculus with 12 samples.

Results

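In newly activated donor CD4+ T cells, the response to Cl-BBQ was compared with the response to TCDD, gene by gene. The comparison used the 4 arrays titled as TCDD and the 4 titled as BBQ, 8 of the 12 arrays of the series; the 4 vehicle arrays set the level from which each response is measured. Each gene was read from 1 probe set, the one with the highest mean over all arrays, which gave 19938 genes. Values are log2 intensities, so a difference of 1 is a doubling.

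CFSE-stained spleen cells of C57Bl/6 donors had been injected into B6D2F1 hosts, a parent-into-F1 transfer that starts graft-versus-host disease, and both strains were bought at 10 to 12 weeks of age. TCDD was given once, at 15 µg/kg on day 0. Cl-BBQ was given at 2 mg/kg on days 0 and 1, and vehicle on the same days. Spleen and lymph node cells were taken on day 2 (48 hr), and CD4+ cells that had diluted CFSE through at least 2 divisions were sorted. The groups therefore differ in compound, dose and number of injections at once, and these cannot be told apart. The labels give 4 hosts a group and call the arrays biological replicates. All 3 groups share the transfer, and neither host nor donor is described as carrying an altered gene. Since only divided cells were kept, cells that had not divided are not represented. On such bulk samples, a change in the share of cells that carry a transcript and a change in the amount per cell cannot be told apart.

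TCDD is a dioxin, and Cl-BBQ is a chlorinated benzimidazoisoquinoline; both are ligands of the aryl hydrocarbon receptor (AhR). AhR is a transcription factor held in the cytoplasm until a ligand binds, after which it enters the nucleus, pairs with ARNT and binds xenobiotic response elements, whose core reads GCGTG. Its direct targets include the cytochromes P450 Cyp1a1 and Cyp1b1, which oxidise ligands, and the feedback inhibitors Ahrr, a repressor that competes with AhR, and Tiparp, an ADP-ribosyltransferase that lowers AhR activity. In CD4+ T cells, AhR ligands are known to shift differentiation and to favour regulatory programmes.

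The label of the sorted cells was checked first. The mean level of the 11 measured CD4 T cell markers lay between 12.19 and 12.43 on every array, and Cd4 itself between 12.29 and 12.55. Markers of B and plasma cells averaged 6.29 to 6.53, of myeloid and dendritic cells 6.44 to 6.60, and of mast cells and progenitors 5.94 to 6.16. The 9 markers of innate lymphoid and gamma-delta T cells averaged 7.61 to 8.06. Markers of NK cells averaged 6.11 to 6.49, of neutrophils and platelets 5.98 to 6.24, and of erythroid cells 6.94 to 7.14. The pair of CD8 T cell markers averaged 8.32 to 9.18, above the array median on every array. It was highest on vehicle replicate 2, where Cd8a read 8.47 against 6.87 to 7.63 on the other arrays. The pair mean exceeded Cd8a on every array, so its other member, Cd8b1, read higher than Cd8a throughout. Array medians ran from 7.11 to 7.24 and arrays correlated at 0.988 to 0.995 with each other. The median half-width of the 95% interval of a gene's TCDD minus Cl-BBQ difference was 0.166, or 1.12-fold.

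The promoters of the 3 genes that differed most clearly, and that of Ahrr, are printed because they hold the AhR core motif. The lines give the 250 bases before the RefSeq start (build GRCm38.p6), 5′ to 3′ on the gene's strand, with the motif in capitals as GCGTG, or as CACGC where it lies on the other strand. The windows are chr17:79715062-79715311 on the minus strand for Cyp1b1, chr3:65528197-65528446 on the plus strand for Tiparp, chr5:75574737-75574986 on the plus strand for Kit and chr13:74292332-74292581 on the minus strand for Ahrr.
Cyp1b1: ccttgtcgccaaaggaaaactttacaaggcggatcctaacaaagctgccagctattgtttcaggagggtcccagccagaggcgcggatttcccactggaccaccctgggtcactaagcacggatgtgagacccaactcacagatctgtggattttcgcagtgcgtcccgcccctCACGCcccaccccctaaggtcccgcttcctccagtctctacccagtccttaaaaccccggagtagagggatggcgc
Tiparp: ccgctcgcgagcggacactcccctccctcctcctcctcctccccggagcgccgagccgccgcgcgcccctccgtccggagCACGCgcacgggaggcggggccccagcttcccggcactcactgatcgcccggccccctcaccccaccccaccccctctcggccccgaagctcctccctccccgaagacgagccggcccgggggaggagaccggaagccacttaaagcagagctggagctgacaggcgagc
Kit: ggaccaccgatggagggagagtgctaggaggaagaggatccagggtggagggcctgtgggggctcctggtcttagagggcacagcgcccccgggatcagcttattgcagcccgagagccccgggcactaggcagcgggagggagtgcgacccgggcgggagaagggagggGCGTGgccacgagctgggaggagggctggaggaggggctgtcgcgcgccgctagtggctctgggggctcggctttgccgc
Ahrr: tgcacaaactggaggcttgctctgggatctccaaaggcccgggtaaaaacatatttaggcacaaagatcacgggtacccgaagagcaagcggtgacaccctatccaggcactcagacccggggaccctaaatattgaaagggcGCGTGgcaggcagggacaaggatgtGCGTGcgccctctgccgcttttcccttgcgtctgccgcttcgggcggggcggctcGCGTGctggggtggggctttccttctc
Cyp1b1, Tiparp and Kit hold 1 match each, and Ahrr holds 3. Kit has 2 annotated starts, 1 of them printed here. Over windows of 300 bases (250 before the start and 50 after), Cyp1a1 has 1 match, while Nqo1, Gpr15, Ccr9 and Gzma have 0. The match is common: 32.4% of all 32851 RefSeq windows hold it on either strand, as do 44.4% of the 15614 measured genes with a window and 46.2% of the 132 such genes that rose in the mean of both compounds. The motif is a description of these letters only.

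Directly compared, TCDD and Cl-BBQ differed at 3 genes, all higher with TCDD. The call rule was an adjusted p under 0.05 in limma (two-sided, Benjamini-Hochberg over all genes); these 3 are 0.015% of the 19938 tested, and 0 genes were called lower with TCDD. At an unadjusted limma p under 0.05, 596 genes passed (2.99%), 323 higher (1.62%) and 273 lower (1.37%). That is fewer than this threshold passes on average where no gene differs. The 4 TCDD and 4 Cl-BBQ arrays did not overlap in 406 genes (2.04%), of which 247 were higher (1.24%) and 159 lower (0.797%). Such separation of 4 from 4 arrays also arises by chance, so these are not counts of genes that differ. Against vehicle, 247 genes were called with TCDD (1.24%) and 39 with Cl-BBQ (0.196%).

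The largest difference was at Cyp1b1, on chromosome 17. With TCDD the 4 arrays read 9.67, 9.92, 9.91 and 9.92, with Cl-BBQ 8.24, 7.90, 5.93 and 7.89, and with vehicle 6.25, 6.57, 6.31 and 6.32. The TCDD arrays lay within a narrow band above all others, whereas 3 Cl-BBQ arrays stood between TCDD and vehicle and Cl-BBQ replicate 3 lay below every vehicle array. TCDD exceeded Cl-BBQ by 2.37 (95% interval 1.65 to 3.08), or 5.15-fold, with a limma adjusted p of 0.0356. Without Cl-BBQ replicate 3 the difference was 1.85 (1.62 to 2.07).

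Tiparp, on chromosome 3, read 10.17, 10.15, 10.31 and 10.12 with TCDD, 9.73, 9.66, 9.25 and 9.53 with Cl-BBQ, and 9.25, 9.35, 9.37 and 9.47 with vehicle. All TCDD arrays exceeded all Cl-BBQ arrays, while Cl-BBQ replicate 3 stood at the lowest vehicle level. The difference was 0.65 (0.45 to 0.84), or 1.56-fold, with a limma adjusted p of 0.0356.

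Kit encodes the receptor tyrosine kinase for stem cell factor, best known on progenitors, mast cells and some innate lymphoid cells. Its arrays read 7.63, 8.03, 7.92 and 7.78 with TCDD, 7.34, 7.33, 6.93 and 7.06 with Cl-BBQ, and 6.61, 6.79, 6.74 and 6.79 with vehicle. The 3 groups did not overlap, in the order TCDD, Cl-BBQ, vehicle. TCDD exceeded Cl-BBQ by 0.68 (0.46 to 0.89), or 1.60-fold, with a limma adjusted p of 0.039. The mast cell genes Fcer1a (4.65 to 5.10 on all arrays), Cpa3 (5.28 to 5.56) and Ms4a2 (4.92 to 5.23) stayed near the bottom of the scale in every group. They are only part of the 13 measured mast cell and progenitor markers. All 13, Kit among them, averaged 6.01 to 6.16 with TCDD, 6.01 to 6.13 with Cl-BBQ and 5.94 to 6.05 with vehicle. TCDD was above Cl-BBQ in 5 of the 13 and below it in 8. Of the 13 measured mast cell and progenitor markers Kit was the only one called, against 0.015% of all genes. TCDD arrays lay wholly above Cl-BBQ arrays in 2 of the 13, Kit among them, against 1.24% of all genes. The 9 measured markers of innate lymphoid and gamma-delta T cells, Kit among them, averaged 7.93 to 8.06 with TCDD, 7.86 to 7.97 with Cl-BBQ and 7.61 to 7.82 with vehicle. Kit was the only one of these called between the compounds. In the mean of both compounds against vehicle, Kit, Il7r and Gata3 rose, as did 0.823% of all genes. The part of mast cells, progenitors, innate lymphoid cells or gamma-delta T cells in the Kit difference was not tested.

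Against vehicle, Cyp1b1 differed by 3.49 with TCDD and by 1.13 with Cl-BBQ, Tiparp by 0.82 and 0.18, and Kit by 1.11 and 0.43. The Cl-BBQ changes of these genes did not pass the test against vehicle (limma adjusted p = 0.298, 0.670 and 0.125). The calls between the compounds were close to the threshold. A limma fit of the 8 arrays alone called 0 genes (adjusted p = 0.420 for all 3), and leaving out any single TCDD array, any single vehicle array or Cl-BBQ replicate 4 also left 0. Without Cl-BBQ replicate 3, Cyp1b1 alone was called. Across 23 alternatives the adjusted p ranged from 7e-07 to 0.612 for Cyp1b1 and from 0.00296 to 0.612 for Tiparp and for Kit; TCDD was higher in each of them.

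**Figure D1:**
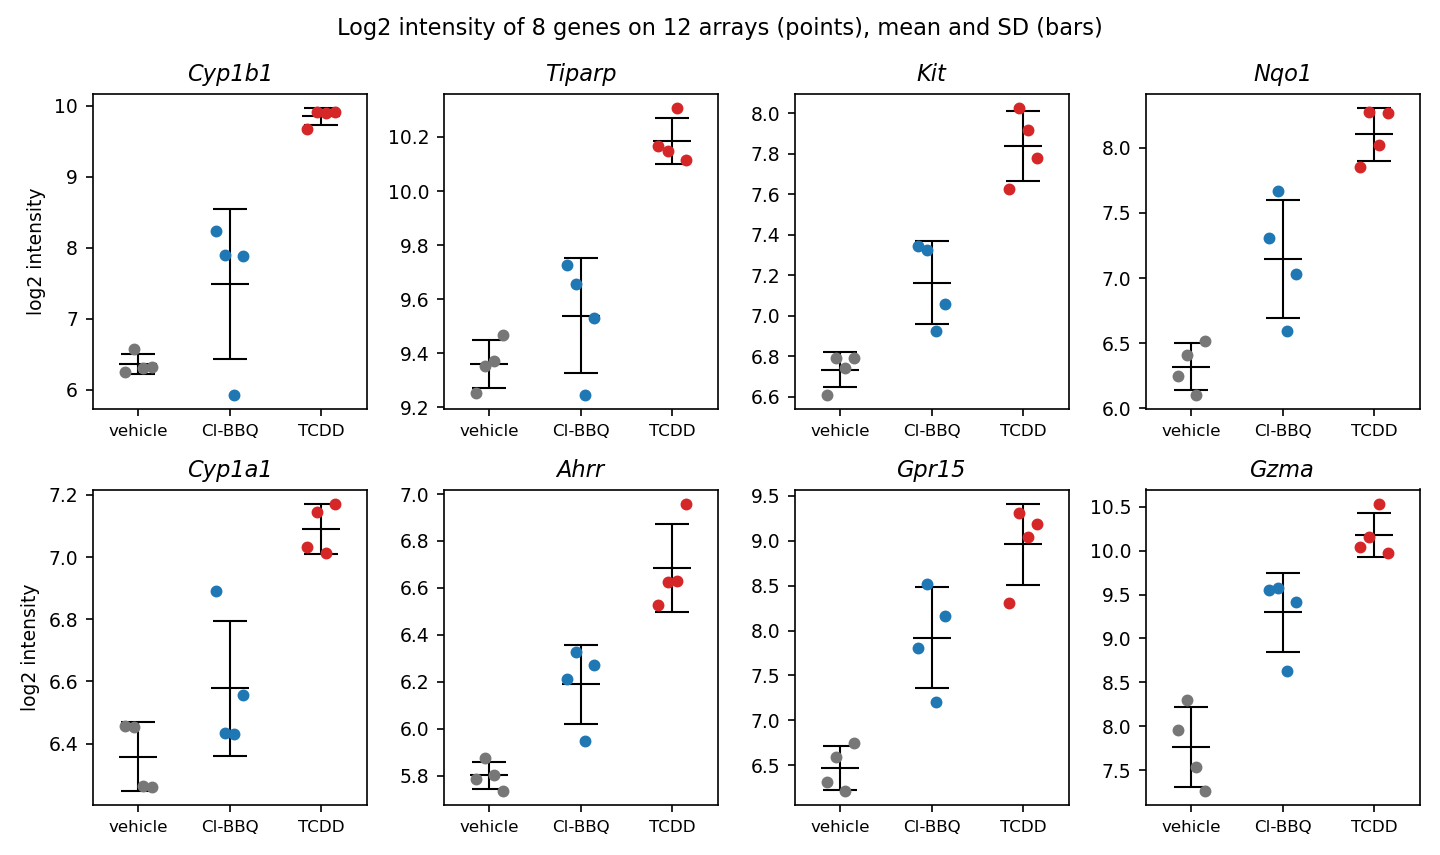
Log2 intensity of 8 genes (vertical axes, each with its own scale) on the 4 vehicle, 4 Cl-BBQ and 4 TCDD arrays; points are arrays, bars the mean and SD. Cl-BBQ sits between vehicle and TCDD in each panel on average, and Cl-BBQ replicate 3 is its lowest array in all 8.

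Deviations from the group means correlated at 0.606, 0.113, 0.157 and 0.365 between same-numbered TCDD and Cl-BBQ arrays. Unlike-numbered arrays reached similar values, 0.419 for TCDD 4 with Cl-BBQ 2 and 0.243 for TCDD 2 with Cl-BBQ 4. The numbers are thus not shown to mark pairs, and block values are given only as an alternative. Correlations of vehicle with same-numbered TCDD and Cl-BBQ arrays ran from -0.134 to 0.182. The numbers therefore do not pair all 3 groups by the criterion used here (every pair over 0.1). A fit with the replicate number as a block called 5 genes (0.0251%) with all 3 groups. With the 8 arrays alone it called 53 (0.266%), of which 45 were higher and 8 lower with TCDD. Both fits kept Cyp1b1, Tiparp and Kit.

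Nqo1 and Gpr15 were the additional genes called with the block in the 3-group fit. Nqo1, a quinone reductase induced by AhR and by NRF2, read 7.85, 8.27, 8.02 and 8.27 with TCDD, 7.31, 7.67, 6.59 and 7.03 with Cl-BBQ, and 6.25, 6.41, 6.10 and 6.52 with vehicle, again without overlap. Its difference of 0.95 (0.59 to 1.32) had a limma adjusted p of 0.21 without the block, and 0.0176 (3 groups) or 0.00421 (8 arrays) with it. Over the 23 alternatives that p ranged from 0.00421 to 1, and the difference from 0.77 to 1.13.

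Gpr15 encodes a receptor that directs T cells to the colon. It read 8.30, 9.31, 9.05 and 9.18 with TCDD, 7.81, 8.52, 7.20 and 8.16 with Cl-BBQ, and 6.31, 6.59, 6.21 and 6.75 with vehicle. The highest Cl-BBQ array passed the lowest TCDD array, while both groups cleared vehicle. The difference of 1.04 (0.53 to 1.55) had a limma adjusted p of 0.504, and 0.0348 or 0.00735 with the block (range over alternatives 0.00735 to 1).

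Of the 20 genes of the AhR target list, 17 were measured. Cyp1b1 and Tiparp were called higher with TCDD and 0 lower, against 0.015% of all genes, and 5 had TCDD arrays wholly above the Cl-BBQ arrays, against 1.24% of all genes. Those 5 were Cyp1b1, Tiparp, Nqo1, Cyp1a1 and Ahrr. The list was assembled with earlier results of these arrays known, so its count is a description. Its median difference was 0.07 (0.047 to 0.11 with 1 array left out, highest without Cl-BBQ replicate 2), against -0.00 over all genes, and the other 12 members overlapped between the compounds; Ahr itself differed by 0.14 (-0.04 to 0.32) and its partner Arnt by 0.10 (-0.05 to 0.25).

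Cyp1a1 read 7.03, 7.15, 7.01 and 7.17 with TCDD, 6.89, 6.43, 6.43 and 6.56 with Cl-BBQ, and 6.45, 6.45, 6.26 and 6.26 with vehicle. All Cl-BBQ arrays lay below TCDD, but 2 of them were within the vehicle range. The difference was 0.51 (0.31 to 0.71), with a limma adjusted p of 0.21, or 0.0852 and 0.0181 with the block in 3 and 2 groups.

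Ahrr read 6.53, 6.63, 6.63 and 6.96 with TCDD, 6.21, 6.33, 5.95 and 6.27 with Cl-BBQ, and 5.79, 5.88, 5.80 and 5.73 with vehicle. Its 3 groups did not overlap. The difference was 0.50 (0.30 to 0.70), with a limma adjusted p of 0.238, or 0.113 and 0.0165 with the block. The mean level of the whole list was 7.80 to 7.87 with TCDD and 7.36 to 7.42 with vehicle; Cl-BBQ replicates 1, 2 and 4 lay between, at 7.57 to 7.66, and replicate 3, at 7.34, lay below vehicle.

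To describe how responses scale, genes were taken by a contrast that does not use the difference between the compounds: the mean of TCDD and Cl-BBQ against vehicle. With equal groups this contrast is orthogonal to TCDD minus Cl-BBQ. It called 246 genes (1.23%), of which 164 rose (0.823%) and 82 fell (0.411%).

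Among the 164 genes that rose, TCDD was farther from vehicle in 160 (97.6%), against 47.9% of all genes above vehicle. The median change was 0.63 with TCDD and 0.39 with Cl-BBQ, or 1.55-fold and 1.31-fold. In 33 genes (20.1%) the TCDD arrays lay wholly above the Cl-BBQ arrays, against 1.24% of all genes; the reverse held for 0. The interval of the difference excluded 0 in 80 of the 164 genes, all higher with TCDD, against 1.62% of all genes higher with TCDD. It stayed within 1.5-fold in 119 (72.6%), fewer than the 99.1% of all genes above vehicle.

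Among the 82 genes that fell, TCDD was farther from vehicle in 69 (84.1%), against 51.7% of all genes below vehicle, with median changes of -0.48 and -0.39. Arrays did not overlap in 5 genes (6.10%), against 0.797% of all genes. The interval excluded 0 in 13 genes, all lower with TCDD, against 1.37% of all genes lower with TCDD. It stayed within 1.5-fold in 73 (89.0%), fewer than the 99.2% of all genes below vehicle.

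Genes share arrays, so these counts are not counts of independent results. By array, the median of the 164 genes above the vehicle mean was 0.43, 0.58, 0.66 and 0.68 with TCDD and 0.31, 0.48, 0.29 and 0.44 with Cl-BBQ. TCDD replicate 1 was thus lower than Cl-BBQ replicates 2 and 4. The median of the 82 genes was -0.51, -0.46, -0.52 and -0.41 with TCDD and -0.50, -0.35, -0.30 and -0.35 with Cl-BBQ, so that Cl-BBQ replicate 1 lay within the TCDD range. Whether the genes that fell and those that rose differ in their shares was not tested. Over both directions, 93.1% of the 246 genes had TCDD farther. Without Cl-BBQ replicate 1 the contrast called another set, of 319 genes, and 79.0% of those had TCDD farther. Among the same 164 genes that rose, TCDD exceeded Cl-BBQ in 150 without that array, against 160 with all arrays.

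**Figure D2:**
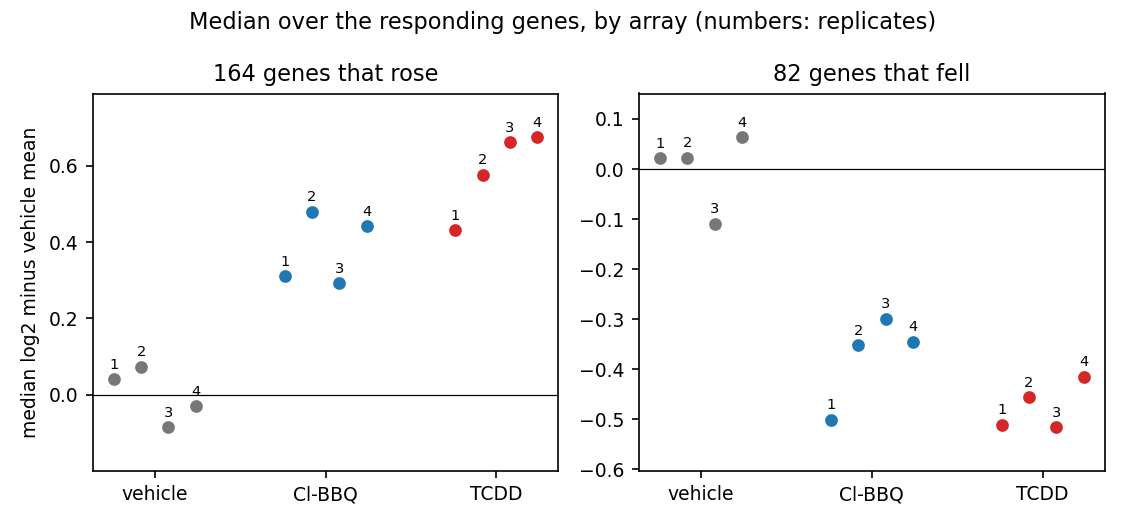
Median over the 164 genes that rose (left) and the 82 that fell (right) of each array's log2 difference from the vehicle mean (vertical axes, separate scales); each point is 1 array, labelled with its replicate number. TCDD and Cl-BBQ arrays overlap: TCDD replicate 1 stands at 0.43 on the left, below Cl-BBQ replicate 2 at 0.48.

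**Figure D3:**
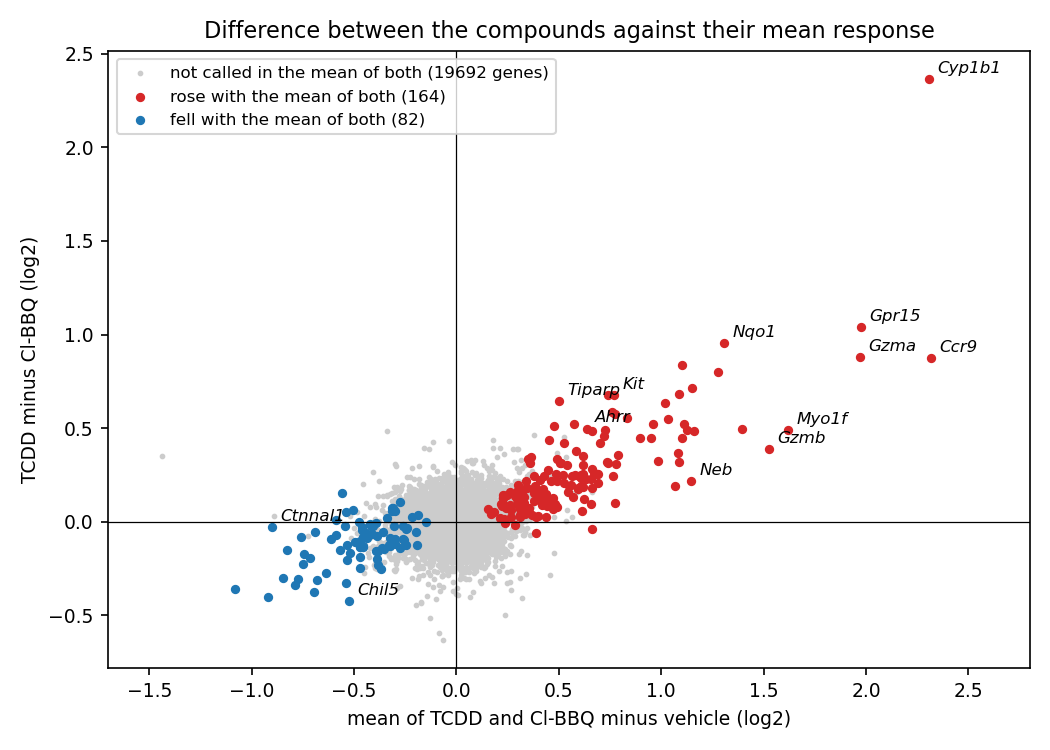
Each point is 1 of 19938 genes: horizontally the mean of TCDD and Cl-BBQ minus vehicle, vertically TCDD minus Cl-BBQ, both in log2. The 164 genes that rose lie almost entirely above 0 and the 82 that fell mostly below, with Cyp1b1 (2.37) far above the rest.

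The size of the Cl-BBQ response was set against that of the TCDD response for each gene. The change with Cl-BBQ was expressed as a percent of the change with TCDD on the log2 scale, with a 95% Fieller interval, so 100 marks equal responses. The median over the 164 genes was 66.4%, with an interquartile range of 56.0 to 75.8%. Most intervals included that median: 10 lay entirely below it and 1 above, and whether all genes share 1 proportion was not tested. For the 82 genes that fell, the median was 79.4% (67.4 to 94.0).

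The 3 lowest shares belonged to AhR targets. Tiparp stood at 21.8% (-2.44 to 42.5), Cyp1a1 at 30.0% (3.40 to 53.5) and Cyp1b1 at 32.2% (13.1 to 49.9), ranks 1, 2 and 3 of 164. Kit followed at rank 9 with 38.9% (21.2 to 55.8), Ahrr at rank 12 with 43.8% (23.5 to 63.4) and Nqo1 at rank 17 with 46.5% (28.2 to 64.5). All 6 intervals, taken with all arrays, lay below the median of 66.4%, among 10 of the 164 that did. Cyp1b1, Tiparp and Kit were called on the TCDD minus Cl-BBQ difference, which the share restates. The AhR target list was assembled with earlier results of these arrays known. These low shares are therefore a description and no separate support.

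Cl-BBQ replicate 3 moved with this order. Without it the shares were 33.6% for Tiparp, 36.7% for Cyp1a1, 47.1% for Cyp1b1, 46.1% for Kit, 52.9% for Ahrr and 56.9% for Nqo1, and the median over the 164 genes was 70.3%. Their ranks became 4, 6, 17, 14, 30 and 41. Il10, at rank 7 with all arrays, was then at 29.7% and rank 3, below each of these genes. That array was the lowest of the Cl-BBQ arrays for 61 of the 164 genes (37.2%), against 3982 of all 19938 genes, and replicate 1 was the lowest for 64 (39.0%), against 7017.

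Between these targets in the ranking, chosen here by rank after the values were seen, were the phosphatidylcholine enzyme gene Pcyt1b at 35.1%, Dkkl1 at 35.2% and the exocyst subunit Exoc3 at 35.3%. Only 4 of the 164 genes had a larger change with Cl-BBQ than with TCDD, among them the glycogen phosphorylase Pygm at 117% (77.2 to 189) and the interleukin-7 receptor Il7r at 106% (56.3 to 208), whose intervals include 100.

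**Figure D4:**
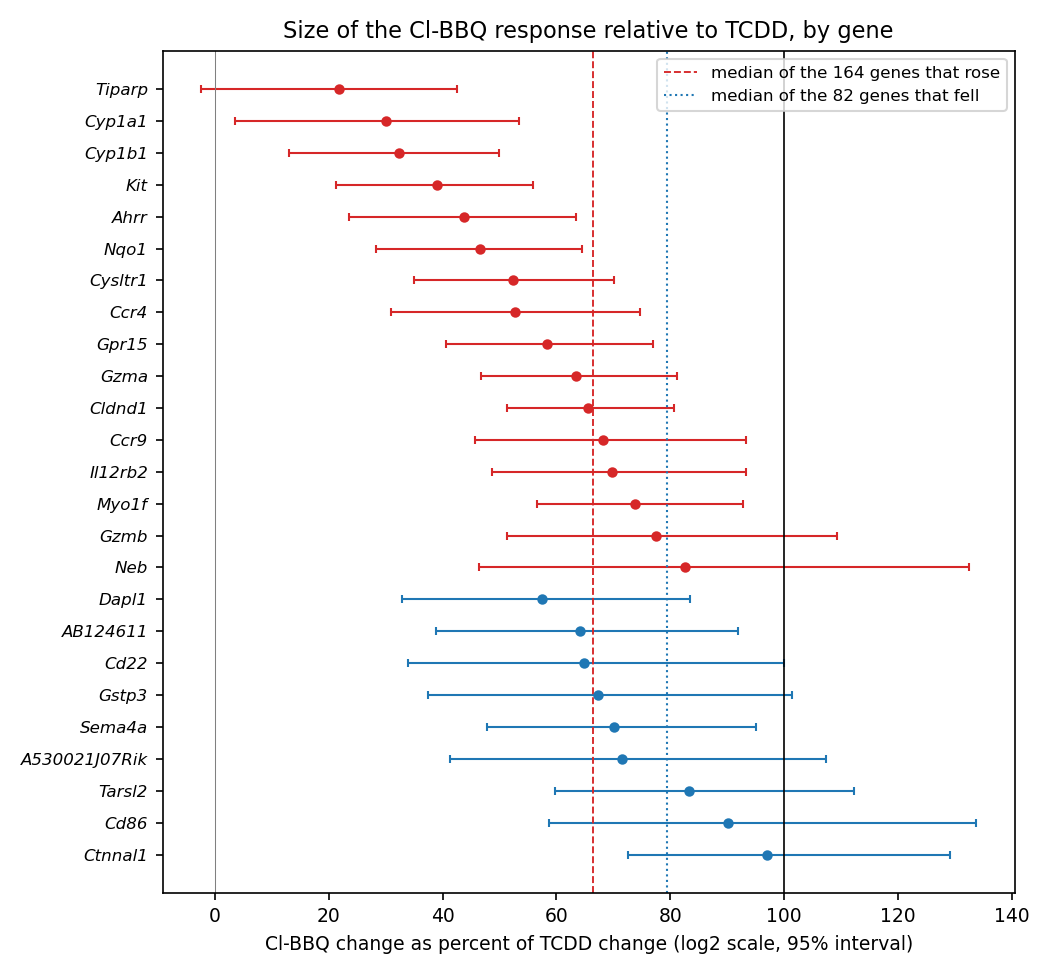
Cl-BBQ change as a percent of the TCDD change, with 95% Fieller intervals. Red marks AhR targets and Kit, then the other genes with the largest increases. Blue marks the 8 largest decreases and Dapl1, which was added and is not among those 8. Lines mark equal responses at 100 and the medians of 66.4% and 79.4%; Tiparp, Cyp1a1 and Cyp1b1 lie lowest, and Ctnnal1 lies near 100.

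Of 22 measured genes of gut homing and trafficking, 0 were called between the compounds, against 0.015% of all genes. In the mean of both, 7 rose and 1, Itgb1, fell, against 0.823% and 0.411% of all genes. The median share of the 7 that rose was 58.4%. The integrin Itgae, which holds lymphocytes to epithelium, was lowest at 37.6% (0.233 to 70.8) and the selectin ligand Selplg highest at 90.2% (54.8 to 142), with overlapping intervals. Ccr9, the receptor for the small-intestinal chemokine, read 9.78, 10.25, 10.56 and 10.76 with TCDD, 8.61, 10.01, 8.97 and 10.23 with Cl-BBQ, and 7.97, 8.20, 7.07 and 7.07 with vehicle. TCDD and Cl-BBQ overlapped, both above vehicle, and the difference was 0.88 (0.16 to 1.59; limma adjusted p = 1, and 0.0178 with the block in the 8 arrays).

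The chemokine receptors Ccr4 and Ccr2 had shares of 52.6% (30.9 to 74.7) and 52.5% (19.6 to 86.1). Ccr2 read 7.78, 8.38, 8.90 and 8.76 with TCDD and 7.26, 7.87, 8.20 and 7.95 with Cl-BBQ. The groups overlapped, yet within each replicate number TCDD was higher. Its difference was 0.64 (0.16 to 1.11), with a limma adjusted p of 1, and 0.00167 with the block in the 8 arrays (range over alternatives 0.00167 to 1).

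Of the 20 measured granule proteins, Gzma, Gzmb and Prf1 rose in the mean of both compounds, against 0.823% of all genes. The intervals of their shares overlapped. Gzma, granzyme A, read 10.04, 10.16, 10.53 and 9.97 with TCDD, 9.56, 9.58, 8.63 and 9.42 with Cl-BBQ, and 7.96, 8.30, 7.54 and 7.26 with vehicle, the 3 groups in order without overlap. The difference was 0.88 (0.42 to 1.35), or 1.84-fold (limma adjusted p = 0.678, and 0.0305 with the block in the 8 arrays), and the share 63.5% (46.8 to 81.2).

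Gzmb, granzyme B, read 12.22, 12.08, 12.65 and 12.37 with TCDD and 12.53, 11.61, 12.20 and 11.43 with Cl-BBQ. These overlapped, and the interval of the difference of 0.39, from -0.13 to 0.91, included 0; the share was 77.5% (51.3 to 109). For Prf1, perforin, the share was 93.8% (53.7 to 158). Of the 20 granule genes measured, 0 were called and the median difference was 0.016; with 1 array left out it ran from -0.015 to 0.022, below 0 without TCDD replicate 4, Cl-BBQ replicate 1 or Cl-BBQ replicate 3.

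Of 24 measured co-inhibitory receptors and genes of type 1 regulatory (Tr1) cells, 0 were called between the compounds, against 0.015% of all genes. In the mean of both, 6 rose and 1, Pdcd1lg2, fell, against 0.823% and 0.411% of all genes. The median share of the 6 that rose was 54.9%. The interval of each of the 6 included the median of 66.4% over the 164 genes that rose. Il10, the suppressive cytokine of Tr1 cells, read 9.26, 9.44, 9.80 and 9.78 with TCDD, 9.17, 9.11, 9.13 and 8.15 with Cl-BBQ, and 8.53, 8.81, 8.39 and 8.24 with vehicle. TCDD lay above Cl-BBQ throughout, and Cl-BBQ replicate 4 stood below every vehicle array. The difference was 0.68 (0.26 to 1.10; limma adjusted p = 1) and the share 37.1% (-2.01 to 71.6), which became 59.8% without Cl-BBQ replicate 4.

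Havcr2, the receptor TIM-3, was similar in share at 45.0% (5.67 to 82.4), with Cl-BBQ values scattered from 8.46 to 10.54. Prdm1, encoding the regulator Blimp-1, and the integrin Itga2 followed at 57.3% and 64.1%, and Ctla4 at 53.2%. None of them was called between the compounds.

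The remaining lists held 0 called genes, apart from Kit in those that include it. In cholesterol synthesis, 3 of 18 members, among them Cyp51 and Stard4, had TCDD arrays wholly above the Cl-BBQ arrays, against 1.24% of all genes. The list had a median difference of 0.11, the highest of the 23 pathway lists with all arrays. Of its members 16 were above 0, against 48.0% of all genes. Without Cl-BBQ replicate 1 that median was 0.078, below the 0.10 of the AhR targets. Against vehicle the list's median change was 0.04 with TCDD and -0.05 with Cl-BBQ. In proliferation, 25 of 29 genes were above 0 with a median of 0.06, and 19 with a median of 0.01 without Cl-BBQ replicate 4. Median centring moved the difference of all genes up by 0.024, and with it each of these medians.

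Regulatory T cell genes had a median of 0.09 with 15 of 18 above 0, and of 0.035 with 12 above 0 without Cl-BBQ replicate 1; Foxp3 did not pass the test. Apoptosis genes had a median of -0.04 with 10 of 14 below 0, which turned to 0.011 with 8 above 0 without Cl-BBQ replicate 4 and was -0.075 without Cl-BBQ replicate 1. In the interferon list, the antiviral membrane proteins Ifitm3 and Ifitm2 had shares of 52.3% and 52.6% with all TCDD arrays above all Cl-BBQ arrays, while the list's median difference was 0.03 (0.0094 to 0.059 with 1 array left out).

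**Figure D5:**
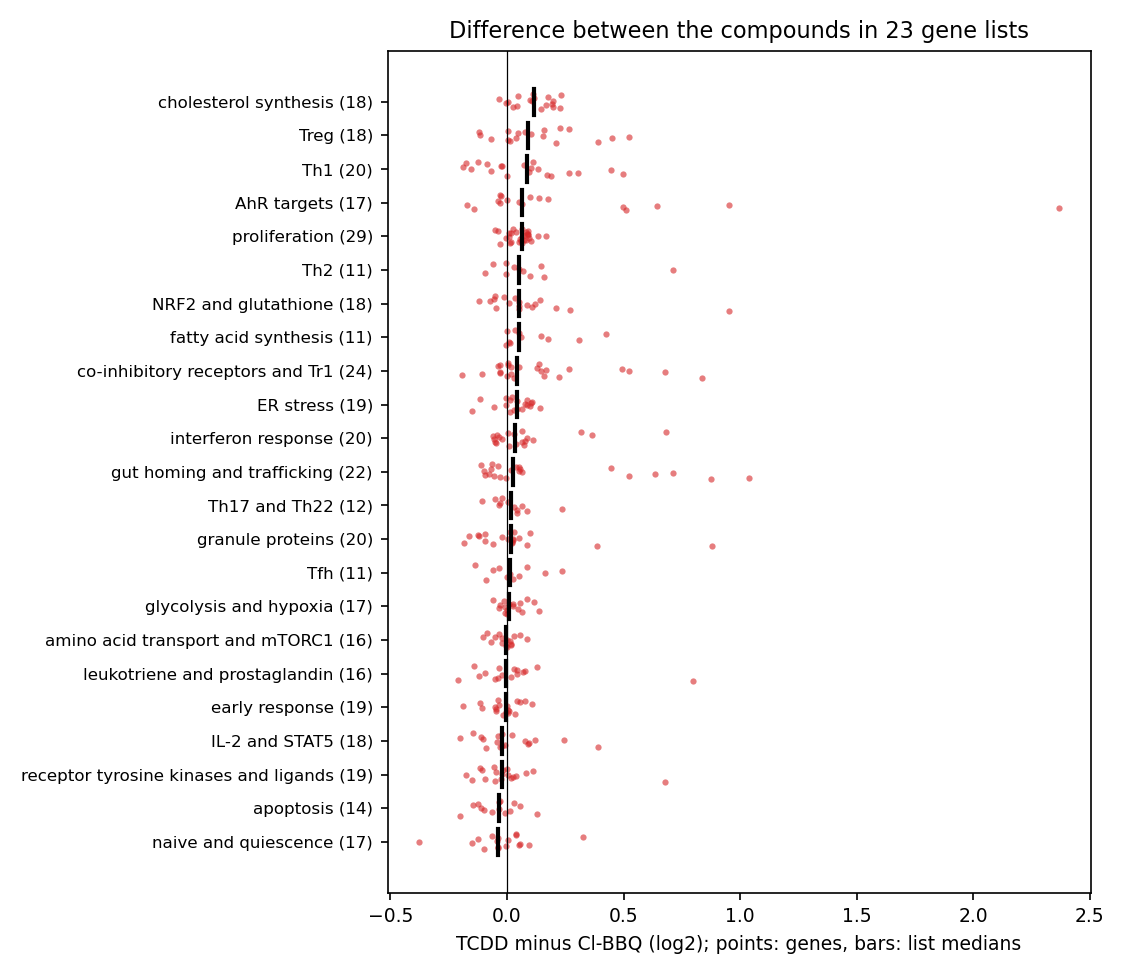
TCDD minus Cl-BBQ (log2, horizontal) for every measured gene of 23 pathway lists, ordered by their medians; points are genes and bars medians, with the number measured in brackets. Medians lie between -0.04 and 0.11, and single genes, such as Cyp1b1 at 2.37, reach far beyond their lists.

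Further genes with large differences and no overlap between the compounds were not called. Cysltr1, a leukotriene receptor, read 7.64, 7.82, 8.59 and 7.77 with TCDD, 7.30, 7.18, 7.06 and 7.08 with Cl-BBQ, and 6.29, 6.52, 6.19 and 6.11 with vehicle. Its groups stood in order, with a difference of 0.80 (0.47 to 1.13; limma adjusted p = 0.288, and 0.0165 with the block in the 8 arrays) and a share of 52.4% (34.9 to 70.0). Myadm (0.59), the haem synthesis enzyme Cpox (0.57) and the complement regulator Cd55 (0.55) were higher with TCDD in the same way, each called with the block in the 8 arrays.

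In the opposite direction, no gene was called. Chil5, a chitinase-like protein, read 8.61, 8.90, 9.01 and 8.81 with TCDD, 9.24, 9.08, 9.42 and 9.27 with Cl-BBQ, and 9.40, 9.85, 9.84 and 9.17 with vehicle. Its TCDD arrays were lowest, and the difference was -0.42 (-0.71 to -0.13; limma adjusted p = 1, and 0.0179 with the block in the 8 arrays). Ms4a4c had a difference of -0.33, and Set, a histone chaperone, one of -0.41 with Cl-BBQ at 6.95 to 7.44 and vehicle at 6.95 to 7.39. Kir3dl1, Cyp3a25 and Serpina6 were also lower with TCDD, with every array under 6.

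Some large responses differed little between the compounds. Ctnnal1, an alpha-catenin relative, read 7.66, 7.57, 7.56 and 7.53 with TCDD, 7.48, 7.77, 7.88 and 7.29 with Cl-BBQ, and 8.49, 8.55, 8.23 and 8.70 with vehicle. Both groups lay below vehicle and overlapped each other, with a difference of -0.03 (-0.28 to 0.22) and a share of 97.0% (72.5 to 129). Cd86, a co-stimulatory ligand, differed by -0.08 (-0.37 to 0.21), and Tarsl2 by -0.15 (-0.39 to 0.09). Intervals of this width do not show that the compounds acted alike.

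The remaining decreases kept similar shares. Sema4a, a semaphorin, stood at 70.1% (47.9 to 95.1), AB124611 at 64.1% (38.8 to 91.9), A530021J07Rik at 71.5% (41.4 to 107), Gstp3 at 67.2% (37.5 to 101) and the B cell receptor inhibitor Cd22 at 64.9% (34.0 to 100). Increases of like size were Cldnd1 at 65.6% (51.4 to 80.6), the unconventional myosin Myo1f at 73.8% (56.6 to 92.8), the interleukin-12 receptor chain Il12rb2 at 69.8% (48.7 to 93.3) and the muscle protein Neb at 82.6% (46.4 to 133). None of these was called between the compounds; with the block in the 8 arrays Cldnd1 (0.0129) and Myo1f (0.00735) were.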

How the data were processed

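Gene expression was measured with 12 Affymetrix arrays, 4 for each of TCDD, Cl-BBQ and vehicle, from 3 µg of total RNA each. The authors processed the arrays by RMA (per the submitters' processing notes) and deposited log2 values; the log2 scale was read from the values, which run from 2.49 to 14.2, while its software version and annotation were not given in the labels or headers used here. The labelling kit in the labels is one for 3′ arrays, but the probes are those of a whole-transcript design. Of 35556 probe sets, 21789 carry 1 gene symbol, 1621 several and 12146 are not listed; 999 genes had several probe sets.

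The limma model (version 3.58.1, under R 4.3.3) took all 12 arrays, with a mean for each group, no block, and moderation by an intensity trend; it left 9 residual degrees of freedom. Genes were called at a two-sided Benjamini-Hochberg adjusted p under 0.05 over 19938 genes, with no filter on dim genes. The fit was tested on simulated data with independent errors and, for each gene, the same spread in all groups. Such data hold no outlying arrays and no difference in spread between groups, so they cannot vouch for the calls here. Figures used Python 3.11.15 and matplotlib 3.10.9. For arrays, their number limits the precision; TCDD, Cl-BBQ and vehicle had median SDs of 0.0935, 0.110 and 0.100.

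Same-numbered TCDD and Cl-BBQ arrays correlated at 0.606, 0.113, 0.157 and 0.365 in their deviations from the group means, all over 0.1, so the replicate number was used as a block in alternative fits; the labels do not say what a shared number marks. Same-numbered pairs with vehicle ran from -0.134 to 0.182, so the block in 3 groups has less support than that in the 8 arrays. Unlike-numbered arrays reached 0.419 between the compounds and 0.505 for Cl-BBQ 1 with vehicle 3. The block in the 8 arrays is therefore not established either.

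The members and the gene lists (23 pathway and 9 marker lists, 456 of 503 intended genes measured) were chosen with earlier results of these data known. Genes were named by rule: those called between the compounds; the 12 largest differences in each direction among genes without overlap and with unadjusted p under 0.01; the 12 largest increases and 8 largest decreases in the mean of both compounds; Cyp1a1, Cyp1b1, Ahrr, Tiparp and Nqo1; up to 4 members per list; and up to 10 genes called only with the block. Genes named by rank of their share, and list members beyond these, were chosen after their values were seen. Olfactory, vomeronasal and predicted genes among the 12 lower ones are not described. Promoters come from RefSeq (GRCm38.p6); Cysltr1 is not shown.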

Additional observations from a re-analysis of the deposited data

Results flagged for a closer look

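The TCDD and Cl-BBQ effects, each against the same vehicle arrays, differed by test for Cyp1b1 (2.37), Tiparp (0.65) and Kit (0.68), the limma calls given in the report; in all 3 the TCDD arrays lay above all Cl-BBQ arrays.

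Single arrays stood apart from the other 3 of their group by Dixon's criterion in 11 of 216 groups of 4 examined over 72 named genes. Chance flags about 1 in 20 groups. Cl-BBQ replicate 3 was low for Cyp1b1 (5.93, the others 7.89 to 8.24) and for Gzma (8.63, the others 9.42 to 9.58), and high for Cd22 (7.77). Cl-BBQ replicate 1 was low for A530021J07Rik (6.59), for Gstp3 (11.09) and for Dapl1 (10.98), 3 genes that fell with both compounds. Cl-BBQ replicate 4 was low for Il10 (8.15, the others 9.11 to 9.17) and for the survivin gene Birc5 (12.32). Of the TCDD arrays, replicate 1 was low for Cyp1b1 (9.67, the others 9.91 to 9.92) and replicate 3 high for Neb (9.61). Vehicle replicate 2 was high for Pygm (7.83).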

How the results depend on the processing

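The count of genes called between TCDD and Cl-BBQ moved most. It was 0 in the fit of the 8 arrays alone, without the intensity trend, after quantile normalization and over every probe set, 9 with array weights, 5 with the replicate block in 3 groups and 53 with the replicate block in the 8 arrays. Leaving out 1 array gave 0 to 7. The count for the mean of both compounds was 395 with the replicate block, 143 after median centring, 158 over every probe set and 154 to 319 with 1 array left out. The share of those genes with TCDD farther from vehicle was 88.9% with the replicate block, 97.5% over every probe set and 79.0 to 97.4% with 1 array left out; leaving out a TCDD or Cl-BBQ array also ends the orthogonality of the contrasts. An alternative added after seeing the data left out TCDD 1, Cl-BBQ 1 and vehicle 3; it called 8 genes, and the share was 85.7%. The cause of these shifts was not tested. Beside the adjusted p-values given in the report, the block in the 8 arrays brought Ccr4 (0.0135), Dennd5a (0.00951), Dkkl1 (0.0148), Exoc3 (0.0135), Ifitm3 (0.00725), Pcyt1b (0.0258) and Set (0.0209) under 0.05; it changed no other call among the genes named in the text.

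Differences near 0 changed sign with 1 array left out: Ctnnal1 ranged from -0.13 to 0.065, Prf1 from -0.062 to 0.093, Selplg from -0.0085 to 0.098 and Il7r from -0.20 to 0.086, the last 0.078 in the added alternative. No other of the 72 genes examined changed sign. The number of arrays, 4 a group, limits what can be called.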

Other observations

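Genes ordered without overlap over all 12 arrays were rare. In 27 genes (0.135% of 19938) every TCDD array exceeded every Cl-BBQ array and every Cl-BBQ array exceeded every vehicle array. They include Ahrr, Kit, Nqo1, Gzma, Cysltr1, Cd55, Cpox, Cldnd1, Myadm, Ifitm2 and Ifitm3, and also the kinase Pim1, the transcription factor Runx3 and the GTPase regulator Dennd5a. The mirror order held for 2 genes, Ramp1 and Eml4. Cl-BBQ was beyond TCDD without overlap in 1 gene above vehicle, Cpxm1, and in 1 below, Net1.

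Among the 82 genes that fell, 13 moved farther with Cl-BBQ than with TCDD. The semaphorin co-receptor Nrp1 had a change of -0.64 with Cl-BBQ and -0.48 with TCDD (132%, 72.4 to 324), and the prostaglandin receptor Ptger4 -0.35 and -0.28 (127%, 70.1 to 295). Both intervals include 100, and both genes were chosen after their values were seen.

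Cl-BBQ arrays varied more than TCDD arrays. The SD was larger with Cl-BBQ in 174 of the 246 responding genes (70.7%), against 63.3% of all genes, with medians of 0.160 and 0.118 for Cl-BBQ and TCDD.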
